A study of Mus musculus with 15 samples.

Results

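Cytosolic ribosomal protein genes encode the proteins of the ribosome that translates nuclear mRNAs. The members are the protein-coding genes whose symbol is Rpl or Rps with a number and an optional letter (a, l or x), together with Rplp0, Rplp1, Rplp2 and Rpsa. This gave 83 of the 55536 genes in the deposited count table, 51 of the large subunit and 32 of the small subunit. Blood RNA was sequenced from 15 male wild-type C57Bl/6 mice aged 10 months. Of these, 8 had been exposed to tributyltin (TBT), an organotin, through their mothers, which received a daily 0.5 mg/kg in their drinking water, a concentration of 3.07 µM, up to weaning of the pups. The other 7 mice were vehicle controls. Exposure thus ended at weaning, and the mice were sampled as adults. Litters and the vehicle's composition are not given in the labels, 1 vehicle mouse (vehicle 3) is labelled as having a liver tumor, and the p-values measure the spread between these mice.

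Each ribosome holds 1 copy of most ribosomal proteins, and their genes are transcribed at high and similar rates in dividing cells. Their mRNAs begin at a C inside a run of pyrimidines, the terminal oligopyrimidine tract, through which their translation is switched with nutrient supply. In blood, white cells carry ribosomes throughout life, while red cells lose theirs as reticulocytes mature, and platelets keep what they received from the megakaryocyte.

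Start-site sequences are shown here for 9 members, because the levels of 8 of them went with the haemoglobin share of the library and the 9th, Rplp2, was called in a comparison without 2 libraries, as described further on. RefSeq promoter windows on GRCm38.p6 were found for 63 of the 83 members, 60 of them tested. Each stretch runs 25 bases either side of the RefSeq start, on the strand of the gene. Capitals mark the first tract found, a C followed by at least 6 more pyrimidines beginning within 20 bases of the start, and a stretch without capitals holds none.
Rpl39 (chrX:37085198-37085247, minus strand): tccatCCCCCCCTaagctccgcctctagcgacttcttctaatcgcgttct
Rpl41 (chr10:128549144-128549193, minus strand): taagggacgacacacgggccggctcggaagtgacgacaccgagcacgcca
Rplp0 (chr5:115559442-115559491, plus strand): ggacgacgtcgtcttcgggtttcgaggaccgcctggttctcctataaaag
Rpl38 (chr11:114668555-114668604, plus strand): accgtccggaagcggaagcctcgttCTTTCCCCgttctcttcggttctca
Rpl28 (chr7:4792940-4792989, plus strand): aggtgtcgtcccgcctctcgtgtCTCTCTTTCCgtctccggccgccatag
Rpl6 (chr5:121204476-121204525, plus strand): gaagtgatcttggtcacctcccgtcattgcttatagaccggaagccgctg
Rpl22 (chr4:152325701-152325750, plus strand): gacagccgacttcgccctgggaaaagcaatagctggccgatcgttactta
Rps18 (chr17:33955641-33955690, minus strand): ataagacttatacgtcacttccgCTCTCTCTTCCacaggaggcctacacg
Rplp2 (chr7:141447626-141447675, plus strand): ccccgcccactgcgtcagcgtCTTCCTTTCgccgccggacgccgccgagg

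Such a tract was found on the gene's strand in 37 of 71 member windows (52.1%), against 6979 of all 32851 RefSeq windows (21.2%). Over the whole window, from 250 bases before the start to 50 after it, and on both strands, GGGCGG, the core of an Sp1 site, was in 62.0% of member windows against 35.7% of all. CCGGAAG, the core of an Ets or GABP site, was in 36.6% against 8.86%, and AAGATGGC, a YY1-like sequence, in 11.3% against 2.75%. Matches of different motifs may overlap, and each is a match of letters and no measured site. Of the 9 stretches, 5 hold a tract and 4 (Rpl41, Rplp0, Rpl6 and Rpl22) do not. The first tract of Rpl39 begins 20 bases before the RefSeq start and ends before it, so that it lies outside an mRNA begun there. A later run in the same stretch also meets the rule, begins after the start and is left in lower case. Whether the RefSeq starts are those used in blood was not tested.

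The libraries held 8.496 to 11.98 M counts in TBT and 6.032 to 10.78 M in vehicle. TBT 2 and TBT 8 stood apart from the other 13 libraries. They had the highest haemoglobin shares (50.8% and 44.5% of counts, against 28.9 to 44.1% in vehicle) and the lowest TMM scaling factors (0.404 and 0.528, against 0.736 to 1.367 in vehicle). In summed marker levels, reticulocyte genes (8 markers) ran from 194800 to 1350000 CPM in TBT and from 231800 to 584800 CPM in vehicle. Platelet genes (7 markers) ran from 2198 to 13250 CPM in TBT and from 2376 to 6449 CPM in vehicle. Both of the top values in TBT were in TBT 2, with TBT 8 at 912600 and 13200 CPM. B cell genes (9 markers) ran from 1125 CPM in TBT 2 to 2879 CPM in TBT and from 1851 to 2655 CPM in vehicle, and all of these blood cell markers were detected in every library. T cell sums (9 markers) ran from 119.6 to 333.0 CPM in TBT and from 157.5 to 315.1 CPM in vehicle, and NK cell sums (5 markers) from 53.81 to 92.48 CPM in TBT and from 41.15 to 94.38 CPM in vehicle. Neutrophil sums (8 markers) ran from 360.1 to 790.9 CPM in TBT and from 420.1 to 1073 CPM in vehicle, and monocyte sums (6 markers) from 769.5 to 1689 CPM in TBT and from 704.4 to 1313 CPM in vehicle. Hepatocyte sums (5 markers, 4 of them at 0 in some libraries) ran from 0.9496 to 496.8 CPM in TBT and from 3.294 to 807.8 CPM in vehicle. Fewer cells of a type and less RNA per cell cannot be told apart in such samples.

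Ribosomal protein mRNA was a small part of the blood libraries, taking up 0.812 ± 0.271% of counts in the 8 TBT libraries and 0.782 ± 0.192% in the 7 vehicle libraries (mean ± SD). The lowest shares were in TBT 2 (0.375%) and TBT 8 (0.457%), and the highest were in TBT 7 (1.174%) and vehicle 3 (1.153%). After TMM scaling, which sets the libraries on a common level by their middle genes, the summed level was 7662 ± 851 CPM in TBT and 7713 ± 402 CPM in vehicle. The large subunit gave 4736 ± 729 CPM in TBT and 4717 ± 198 CPM in vehicle. The small subunit gave 2926 ± 143 CPM in TBT and 2996 ± 220 CPM in vehicle. These differences between groups lie within 1 SD. The ratio of large to small subunit sums was 1.934 in TBT 2 and 1.865 in TBT 8, outside the range of the other TBT libraries (1.467 to 1.583) and of vehicle (1.456 to 1.653).

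**Figure D1:**
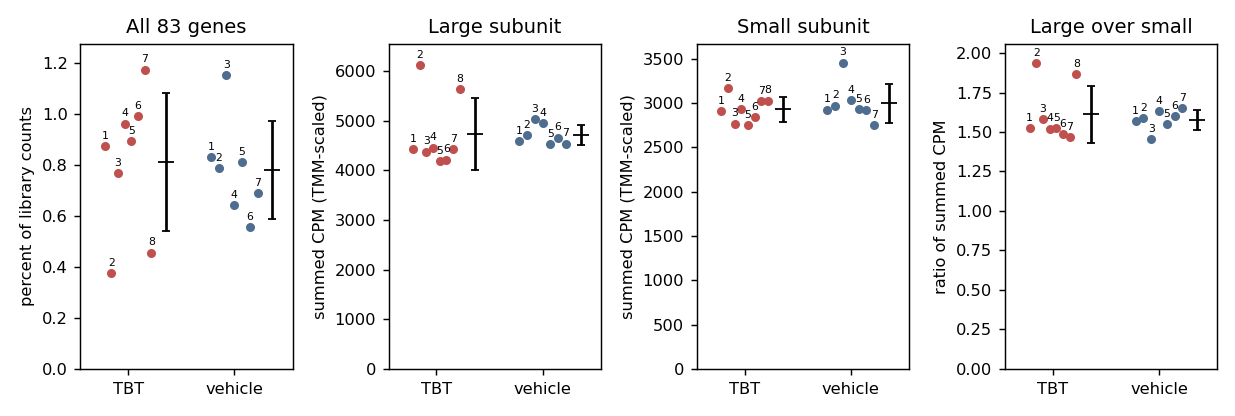
Ribosomal protein counts by library: the percent of all counts, the summed CPM of the large and the small subunit genes on TMM-scaled library sizes, and the ratio of the 2 sums, for 8 TBT and 7 vehicle libraries (points numbered by replicate, bar with the mean and SD). TBT 2 and TBT 8 have the lowest shares, at 0.375% and 0.457%, and the highest large to small ratios, at 1.934 and 1.865.

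Counts reached 80 of the 83 genes well enough to be tested, and 79 had counts in every library. The 3 others are tissue-restricted paralogs: Rpl10l had 1 count, Rpl39l 12 and Rpl3l, a muscle paralog of Rpl3, 81 counts over the 15 libraries. Per kilobase of exon, levels of the tested genes ran from 1.125 CPM in Rps10 to 299.7 CPM in Rpl41. The highest of the large subunit were Rpl41, the shortest protein of the ribosome, Rplp1 (195.6 CPM per kilobase) and Rplp0 (187.5 CPM per kilobase), and of the small subunit Rps3a1 (208.1 CPM per kilobase), Rps15 (147.1 CPM per kilobase) and Rps29 (126.1 CPM per kilobase). Besides Rps10, low levels per kilobase were found for the paralogs Rpl22l1 (1.857 CPM) and Rpl7l1 (3.657 CPM) and for Rpl24 (2.683 CPM). Rps10 and Rpl24 overlap same-strand gene models without counts (RPS10-NUDT3 and Gm28037), as does Rpl13 (Gm20388), which stood at 50.24 CPM per kilobase. How reads shared by such models were assigned is not given, and their part in these levels was not tested. Near-identical processed pseudogenes exist for many members: the table lists 300 rows named as ribosomal protein pseudogenes, 236 with counts, and how reads that match both a gene and a copy were assigned is not given. Levels of members with such copies are uncertain for that reason. Another 15 members overlap a tested gene on the opposite strand, among them Rpl35 with Arpc5l, Rpl28 with Ube2s, Rps18 with Vps52 and Rpl18 with Sphk2, and whether counting used strand is not stated, so that reads of such pairs may not be told apart.

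Between TBT and vehicle no ribosomal protein gene was called by edgeR's quasi-likelihood test (adjusted p under 0.05), and of all 13364 genes none was called either (0.0%; smallest adjusted p 0.207; 846 genes at an unadjusted p under 0.05). DESeq2 called 19 genes and limma-voom 22, no member among them. The smallest adjusted p of a member was 0.676. Without adjustment, 7 members had p under 0.05, against 6.33% of all genes, of which 6 were lower in TBT, against 1.76% of all genes, and 1 was higher, against 4.57% of all genes. The 7 became 4 without TBT 3 or without vehicle 3, and 11 without TBT 2, TBT 7 or vehicle 7. In estimated direction, 59 of the 80 members were lower in TBT (73.8%), against 40.6% of all genes. With no filter on low counts it was 62 of 83 (74.7%), against 54.7% of all genes. Their median log2 fold change was -0.05, against 0.05 over all genes, and the members ran from -0.56 to 0.42. Of these, 66 lay within 0.2 of zero on the log2 scale. Among tested protein-coding genes at or under the members' median length, 55.7% were lower by exon length (median -0.03) and 61.1% by genomic span (-0.05). Large subunit genes had 37 of 48 lower (median -0.05) and small subunit genes 22 of 32 (median -0.06). B cell markers (9 of 9, median -0.24) and hepatocyte markers (4 of 4 tested, -0.46) had lower estimates as well. Reticulocyte (8 of 8, 0.29), monocyte (6 of 6, 0.22) and NK cell markers (5 of 5, 0.10) had higher ones. T cell, neutrophil and platelet markers were mixed, and no marker was called. The median reticulocyte sum was nonetheless lower in TBT (292600 CPM) than in vehicle (393800 CPM), with TBT 2 and TBT 8 the highest libraries. The part of these cell types in the levels of the ribosomal protein genes was not tested.

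**Figure D2:**
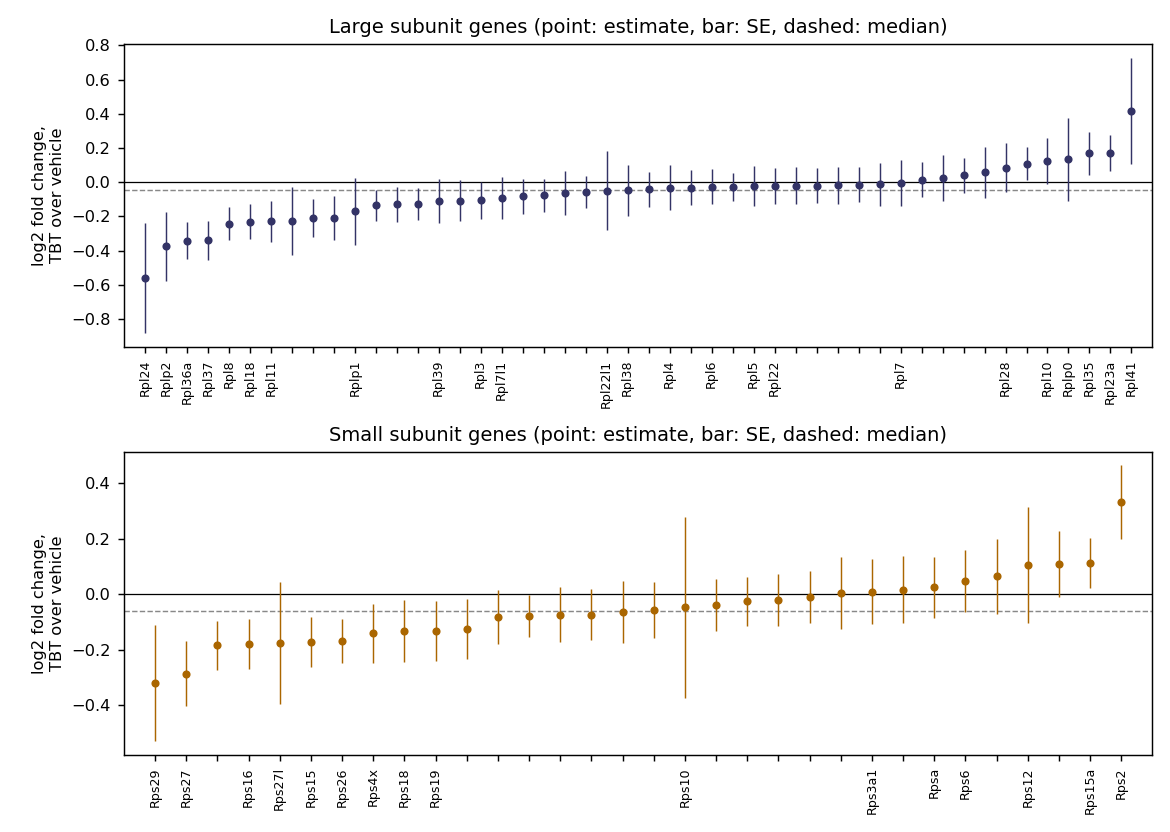
Log2 fold changes (TBT over vehicle) of the 48 large and 32 small subunit genes that were tested, in order of size, with their standard errors; the dashed line is the median, and some genes are labelled. Most points lie slightly below zero (37 of 48 and 22 of 32), most bars are wide against the distance from zero, and the ends are Rpl24 (-0.56) and Rpl41 (0.42).

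Groups did not separate for any member. No ribosomal protein gene had all TBT libraries below all vehicle libraries, against 0.015% of all genes, and none had them all above, against 0.0973%. For 6 members, among them Rpl36a, Rpl37, Rps16, Rps26 and Rpl24, all 8 TBT libraries lay below the vehicle median, against 2.19% of all genes, and for none did all lie above it, against 3.76%. Rps16 and Rpl24 are named after their values were seen.

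Of the large subunit genes, Rpl36a had the smallest p. Its protein sits at the site where deacylated tRNA leaves the ribosome, and the gene (ENSMUSG00000079435) lies on chromosome X at 134585654 to 134588062. Levels of Rpl36a in TBT ran from 20.2 CPM (TBT 8) over a median of 24.8 to 29.8 CPM (TBT 4), against 25.7 (vehicle 7), 30.5 and 39.9 CPM (vehicle 3) in vehicle. All TBT libraries were under the vehicle median, but the ranges overlapped. The log2 fold change was -0.34 (SE 0.108, adjusted p = 0.676).

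Rpl37, a zinc-binding protein of the large subunit (chromosome 15 at 5116645 to 5119140), showed the same size of difference. Its levels in TBT were 25.7 CPM at the lowest, 31.8 at the median and 36.7 at the highest, against 31.2, 38.4 and 52.5 CPM in vehicle. The vehicle maximum was vehicle 6, and again the ranges overlapped. The log2 fold change of Rpl37 was -0.34 (SE 0.114, adjusted p = 0.708).

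The next members on the lower side were Rpl8, which lies near the peptidyl transferase centre, Rps27, a zinc-finger protein of the small subunit, and Rpl18. Rpl8 averaged 101 ± 8.46 CPM in TBT and 119.5 ± 10.9 CPM in vehicle (log2 fold change -0.24, adjusted p = 0.731). Rps27 averaged 95.3 ± 14.5 CPM in TBT and 116 ± 13.1 CPM in vehicle (-0.29, adjusted p = 0.731), with its lowest levels in TBT 2 (72.1 CPM) and TBT 8 (82.5 CPM). Rpl18 averaged 46.1 ± 4.64 CPM in TBT and 54.2 ± 8.66 CPM in vehicle (-0.23, adjusted p = 0.745). For each of these genes 7 of 8 TBT libraries lay below the vehicle median.

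On the higher side Rps2 was the 1 member with an unadjusted p under 0.05. Rps2 is a protein near the mRNA entry of the small subunit, and its gene lies on chromosome 17 at 24718116 to 24721929. Levels of Rps2 in TBT ran from 70.2 CPM over a median of 84.2 to 126 CPM, against 66.2, 72.1 and 81.1 CPM in vehicle. The 2 highest values were TBT 2 (126 CPM) and TBT 8 (123 CPM), and the other 6 TBT libraries reached 91.3 CPM at most. The log2 fold change of Rps2 was 0.33 (SE 0.133, adjusted p = 0.731).

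Behind Rps2 on the higher side came Rpl23a and Rpl35, neighbours at the exit of the peptide tunnel, with log2 fold changes of 0.17 each (adjusted p = 0.868 and 0.901). Rpl35 was highest in TBT 2 and TBT 8 (119 and 110 CPM), and its estimate was -0.01 without them. Rpl41 followed at 0.42 (SE 0.310, adjusted p = 0.901), and Rps15a at 0.11 (adjusted p = 0.920). Rpl41 (chromosome 10 at 128548114 to 128549305) had 895 CPM in TBT 2 and 698 CPM in TBT 8, while the other TBT libraries had 194 to 355 CPM and vehicle 237 to 397 CPM. Without TBT 2 and TBT 8 its estimate was -0.18.

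**Figure D3:**
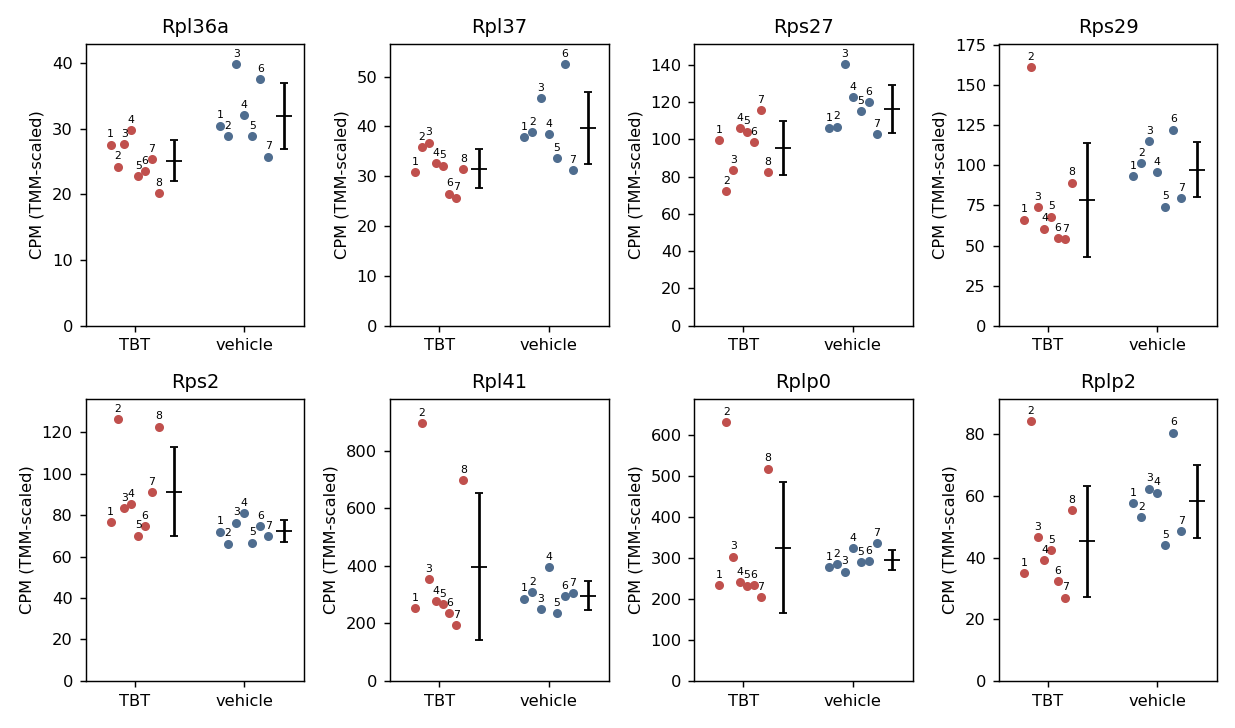
CPM on TMM-scaled library sizes of 8 ribosomal protein genes in each TBT and vehicle library (points numbered by replicate, bar with the mean and SD). TBT 2 is highest for Rps29, Rps2, Rpl41, Rplp0 and Rplp2, while for Rpl36a, Rpl37 and Rps27 the TBT libraries lie mostly under the vehicle ones with overlap.

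The stalk of the large subunit, built of Rplp0 and the paired Rplp1 and Rplp2, recruits the translation factors that use GTP. Rplp0 ran from 204 over a median of 237 to 631 CPM in TBT, against 266, 289 and 335 CPM in vehicle (log2 fold change 0.13, adjusted p = 0.979). Rplp1 ran from 60.4 over 78.3 to 165 CPM in TBT, against 80.1, 101 and 146 CPM in vehicle (-0.17, adjusted p = 0.964). Rplp2 ran from 27.0 over 40.8 to 84.1 CPM in TBT, against 44.1, 57.7 and 80.5 CPM in vehicle (-0.38, adjusted p = 0.827). The 3 stalk genes shared a pattern within TBT: TBT 2 and TBT 8 were the top 2 libraries of the group for each, and the medians of TBT lay below those of vehicle. The small subunit gene Rps29, a zinc-binding protein whose human gene is mutated in Diamond-Blackfan anaemia, did likewise (54.0, 67.1 and 161 CPM in TBT, against 74.3, 96.0 and 122 CPM in vehicle).

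TBT 2 and TBT 8 lay away from vehicle for many members, in both directions. Relative to the vehicle mean, the mean of these 2 libraries was 2.68 times as high for Rpl41, 1.94 for Rplp0, 1.81 for Rps12 and 1.72 for Rps2, and 0.344 times for Rpl24, 0.485 for Rps10, 0.665 for Rps27 and 0.696 for Rpl36a (Rps12 is named after its values were seen). TBT 2 was the highest of all 15 libraries for 23 of 80 members and the lowest for 19. Vehicle 3, the mouse labelled with a liver tumor, was the highest for 29 members and the lowest for none. On log2(CPM + 0.5), the SD between TBT libraries was larger than that between vehicle libraries for 56 of 80 members (70.0%), against 69.1% of all genes. Without TBT 2 and TBT 8 it was larger for 17 members (21.2%), against 31.3% of all genes.

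The comparison was therefore also made without TBT 2 and TBT 8, a choice made after seeing the data. edgeR then called 462 of 13645 genes (3.39%), of them 346 lower in TBT (2.54%) and 116 higher (0.85%). Of the 80 members 4 were called, all with lower estimates. The log2 fold changes were -0.64 for Rps29 (adjusted p = 0.0313), -0.66 for Rplp2 (0.0369) and -0.50 for Rplp1 (0.0381). Rpl39, a short protein lining the peptide tunnel, had -0.32 (0.0425). For each of the 4, TBT 2 and TBT 8 were the 2 highest TBT libraries, so that leaving them out lowered the TBT mean and spread. The adjusted p-values do not allow for that choice. The 6 remaining TBT libraries had 54.0 to 74.1 CPM of Rps29, against 74.3 to 122 CPM in vehicle, so that 74.1 in TBT 3 and 74.3 in vehicle 5 all but met. For Rplp1 they had 60.4 to 80.6 CPM, against 80.1 to 146 CPM in vehicle, and for Rplp2 27.0 to 46.6 CPM, against 44.1 to 80.5 CPM in vehicle, both with overlap. For Rpl39 they had 34.2 to 40.3 CPM, against 41.2 to 53.1 CPM in vehicle. These ranges did not overlap only because TBT 2 (61.9 CPM) and TBT 8 (58.6 CPM) were left out. The share of all genes without overlap in this comparison was not determined. In all, 62 of 80 members were lower (77.5%), against 47.1% of all genes. The 6 libraries had haemoglobin shares of 28.8 to 37.1%, against 28.9 to 44.1% in vehicle. Their summed platelet markers ran from 2198 over a median of 2789 to 3950 CPM, against 2376, 5885 and 6449 CPM in vehicle, and their reticulocyte markers from 194800 over 263800 to 373700 CPM, against 231800, 393800 and 584800 CPM in vehicle. The part of either in the 4 calls was not tested. With vehicle 6 left out as well, 7 of 13590 genes were called (0.0515%; 0.0294% lower and 0.0221% higher), 66 of 80 members were lower, against 47.2% of all genes, and no member passed the edgeR test (18 members at an unadjusted p under 0.05, smallest adjusted p 0.057). The same 4 genes then had log2 fold changes of -0.58 (Rps29), -0.56 (Rplp2), -0.39 (Rplp1) and -0.31 (Rpl39).

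Levels were next set against the haemoglobin share of the library, a comparison also chosen after seeing the data. For each of 13358 tested genes other than haemoglobin genes, log2(CPM + 0.5) was correlated with that share over the 15 libraries. The p-values come from 100000 permutations and were adjusted over all of these genes, and a gene was called when Pearson's and Spearman's tests both passed. Of 80 members 8 were called, against 10.2% of all genes, so that the members did so about as often as genes in general. Of these, 5 were positive, against 7.97% of all genes, and all 5 belong to the large subunit. The 3 negative ones, against 2.28% of all genes, were Rpl6, Rpl22 and Rps18. That no small subunit gene was among the positive calls rests on the need to pass both tests. The small subunit genes Rps12, Rps9, Rps24 and Rps29 passed Pearson's test alone (r = 0.790, 0.662, 0.655 and 0.619), as did some large subunit genes. Rpl6, Rps18, Rpl38, Rpl28, Rps12, Rps9 and Rps24 are named after their values were seen.

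Rpl39 had the highest correlation, with r = 0.920 (permutation p = 1e-05, the smallest the permutations can give; adjusted p = 0.00079) and rho = 0.843 (adjusted p = 0.0109). Rpl41 (r = 0.903, rho = 0.875) and Rplp0 (r = 0.901, rho = 0.861) followed, then Rpl38 (r = 0.872, rho = 0.729), which in mice is needed for patterning of the axial skeleton, and Rpl28 (r = 0.818, rho = 0.700). On the negative side, Rpl6 had r = -0.843 and rho = -0.821, Rpl22, needed in mice for the development of most T cells, r = -0.841 and rho = -0.764, and Rps18 r = -0.783 and rho = -0.743. All 8 had the same sign within TBT and within vehicle: Rpl39, for instance, had r = 0.973 over the TBT and r = 0.933 over the vehicle libraries, and Rpl28 r = 0.950 and r = 0.180. Without TBT 2 and TBT 8, the libraries farthest from the median haemoglobin share, r was 0.841 for Rpl39, 0.794 for Rpl41, 0.765 for Rplp0 and 0.684 for Rpl38. It was 0.513 for Rpl28, -0.626 for Rpl6, -0.630 for Rpl22 and -0.545 for Rps18. No gene passed both adjusted permutation tests over those 13 libraries (7 members and 1268 genes at both unadjusted p under 0.05). The 8 correlations kept their sign without TBT 2 and TBT 8. Taken as counts over the summed ribosomal protein counts, 16 members were called over all 15 libraries, against 8.78% of all genes. Of these 16, 5 were positive, against 7.0% of all genes, and 11 negative, against 1.78%, where the CPM form had 5 and 3. In this form the members' shares sum to a fixed whole, so that a rise of some members lowers the others. Other genes are not bound in that way, and their percentages are not a like background. Platelet markers were also highest in these 2 libraries, and their part in the relation was not tested. The start-site stretches given above differ within both sets. Of the positive genes Rpl38, Rpl28 and Rpl39 (with runs either side of the start) hold a tract, and Rpl41 and Rplp0 do not. Of the negative ones Rps18 does.

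**Figure D4:**
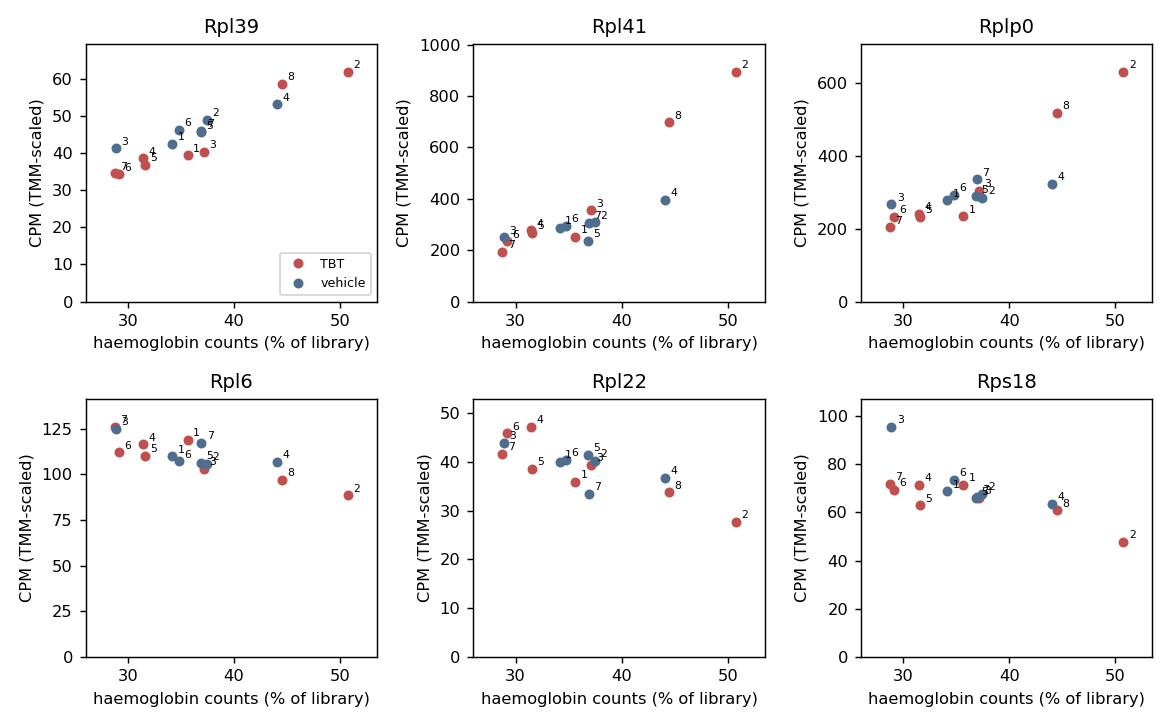
CPM on TMM-scaled library sizes of 6 ribosomal protein genes against the haemoglobin share of the library, for 8 TBT and 7 vehicle libraries (numbers are replicates). Rpl39, Rpl41 and Rplp0 run upward (r = 0.920, 0.903 and 0.901) and Rpl6, Rpl22 and Rps18 downward (r = -0.843, -0.841 and -0.783), with TBT 2 and TBT 8 at the right-hand end.

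Members with other known roles showed small differences. Rpl5 and Rpl11, which with 5S rRNA form the particle that binds Mdm2, had log2 fold changes of -0.02 (adjusted p = 0.994) and -0.23 (adjusted p = 0.826). Rps6, the substrate of the S6 kinases, had 129 ± 14.0 CPM in TBT and 125 ± 12.4 CPM in vehicle (0.05, adjusted p = 0.985). Rpsa, also known as the laminin receptor, had 147 ± 15.4 CPM in TBT and 144.5 ± 11.2 CPM in vehicle (0.02, adjusted p = 0.994). Rps19 and Rps26, whose human genes are among those mutated in Diamond-Blackfan anaemia, stood at -0.13 (adjusted p = 0.920) and -0.17 (adjusted p = 0.784). Of 18 genes linked to that anaemia in humans, 12 were lower (66.7%; median -0.05), against 73.8% of the members and 40.6% of all genes. At an unadjusted p under 0.05, 3 of the 18 were lower, against 6 of the 80 members and 1.76% of all genes, and none was called. Of the paralogs that could be tested, Rpl7l1 (-0.09), Rps27l (-0.18) and Rpl22l1 (-0.05) were not called (adjusted p = 0.971, 0.964 and 0.994), and their parent genes Rpl7 (-0.01), Rps27 (-0.29) and Rpl22 (-0.02) were not called either. Nor were Rpl3 (-0.11), Rpl10 (0.12) and Rps4x (-0.14). Rps3a1, Rps15 and Rps10, the highest and lowest of the small subunit per kilobase, had 0.01, -0.17 and -0.05 (adjusted p = 0.997, 0.827 and 0.997). Rpl24 had the lowest fold change (-0.56, SE 0.323, adjusted p = 0.852) on 2.21 ± 0.920 CPM in TBT and 3.40 ± 0.996 CPM in vehicle, with no count in TBT 8.

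Gene length went with the fold change only loosely. Members with at most 1806 bases of exon, the median, had 29 of 40 lower estimates (median log2 fold change -0.08), and longer ones 30 of 40 with -0.03. All tested protein-coding genes showed the same order at that length, with medians of -0.03 for the 1025 shorter ones and 0.04 for the 10120 longer ones. Split by coding length at 462 bases the medians were -0.07 and -0.03, and by genomic span -0.08 and -0.03. Within the small subunit, 14 of 16 short genes by exon length were lower (median -0.11) and 8 of 16 long ones (median -0.01), while within the large subunit it was 15 of 24 short (median -0.04) and 22 of 24 long (median -0.05). Across members, the log2 fold change had r = 0.157 with log2 exon length and r = 0.134 with log2 coding length (80 genes that share the same libraries, a description). With mean level it had r = 0.458, likewise a description. The shortest coding sequence, Rpl41 (138 bases), had the highest estimate, and the longest, Rpl4 (1257 bases), had -0.03 with 306 ± 23.4 CPM in TBT and 313 ± 20.7 CPM in vehicle.

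**Figure D5:**
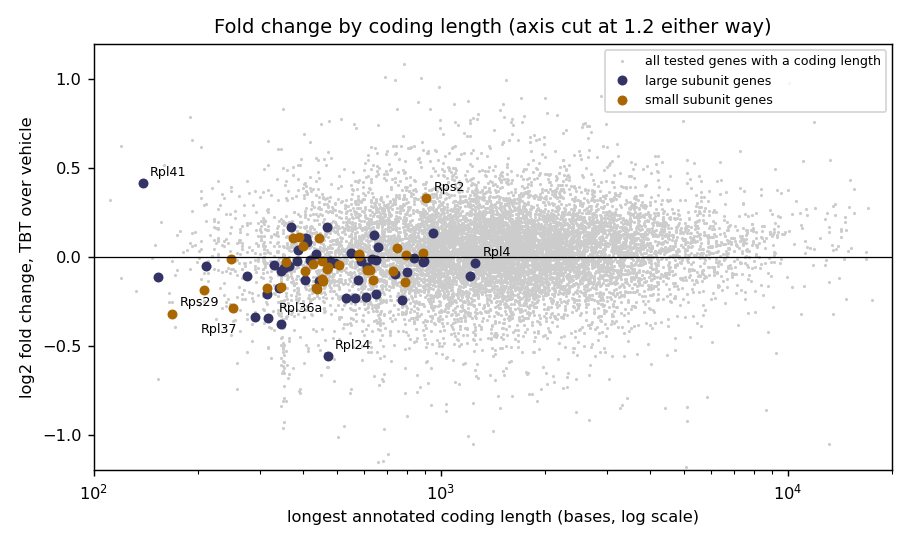
Log2 fold change (TBT over vehicle) against longest annotated coding length (log axis) for large and small subunit genes over all tested genes with a coding length, of which 27 of 11248 fall outside the axes. Ribosomal protein genes lie at the short end and slightly under zero, with Rpl24 (-0.56) and Rpl41 (0.42) the farthest from it on either side.

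The rest of the translation machinery was read from gene lists, and no gene of these lists was called. Their counts stand beside 40.6% of all genes with lower estimates and a median of 0.05. Of ribosomal proteins outside the name pattern, Rpl36al had a log2 fold change of -0.51, Rack1 of -0.09 and Fau of -0.04. Translation factors and related genes whose mRNAs carry the same tract had 11 of 19 lower (median -0.01), with Btf3 at 0.19 and Eef1g at -0.11. Genes of ribosome assembly had 16 of 27 lower (median -0.04), among them the snoRNP protein gene Nop56 (-0.26) and Rrs1, a factor for the 5S particle (-0.45). RNA polymerase I and its factors, which make the ribosomal RNA, had 10 of 15 lower (median -0.05), with Polr1d at -0.25 and Polr1e at -0.31. Regulators of the translation of ribosomal protein mRNAs had 6 of 9 lower (median -0.04), with the tract-binding protein gene Larp1 at 0.14 and Rps6kb1, an S6 kinase, at 0.14. The 10 tested pseudogenes had 7 lower (median -0.20), with Rpl31-ps8 at -0.41. Proteins of the mitochondrial ribosome had 36 of 74 lower (median 0.01). Their smallest p-values belonged to genes with higher estimates, Mrps33 (0.65, SE 0.193, adjusted p = 0.676) and Mrpl15 (0.41, SE 0.140, adjusted p = 0.710).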

How the data were processed

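Blood RNA, isolated by RNeasy with a DNase step, was sequenced as TruSeq Stranded Total RNA libraries, per the labels' protocols. The submitters' processing notes name Trim Galore, HISAT2, featureCounts and the build mm10. They state no version, annotation release or strand setting. The authors deposited unnormalized whole-number counts per gene, and these counts were used as deposited, with 1 column per mouse matched by its description.

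Genes passing filterByExpr (13364) entered edgeR 4.0.16 (R 4.3.3; TMM, robust quasi-likelihood test, no covariate), with a Benjamini-Hochberg threshold of 0.05 over the whole table. Levels are CPM on TMM-scaled library sizes. Alternatives used DESeq2 1.42.0 and limma 3.58.1 (voom with quality weights), other scalings and filters, and left-out libraries. The fit was tested on simulated data. Common biological variation was 0.290, and libraries of a group differed beyond counting noise (lowest chi-square per gene 11.3). Lengths and coordinates come from GENCODE M21 on GRCm38, which held 55450 of the identifiers. No protein table was used, so union exon length was the measure of length. The width of the start-site search and the shortest tract counted were set after a first look at the sequences.

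Members, gene lists and markers were chosen with earlier results of these data known. Named genes are the 5 members with the smallest p in each direction, the 3 highest per kilobase and the lowest of each subunit, the shortest and the longest, genes of known role, paralogs with their parent genes, and up to 2 genes of each other list. Results for a few genes are not reported here.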

Additional observations from a re-analysis of the deposited data

Results flagged for a closer look

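Single libraries stood apart from the rest of their group in 11 of 90 sets of values. The measure was the gap to the nearest other library against the group's range (Dixon's 95% criterion). The sets share the same libraries, and some of their genes were chosen after their values were seen, so that no chance rate is set beside the count. Vehicle 3 was the highest vehicle library for Rpl4 (356.4 CPM, next 318.9), Rpl3 (105.9, next 91.31), Rps16 (93.33, next 74.68), Rps18 (95.62, next 73.57) and the summed small subunit level (3455, next 3034 CPM). Vehicle 6 was highest for Rplp1 (146.5 CPM, next 106.0) and lowest for Rpl10 (96.29 CPM, next 124.6).

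Among TBT libraries, TBT 2 was highest for Rps29 (161.5 CPM, next 89.3) and lowest for Rps18 (47.89 CPM, next 60.95), TBT 7 was highest for Rpsa (178.8 CPM, next 152.0), and TBT 8 was lowest for Rpl24 (0.0 CPM, next 2.25).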

How the results depend on the processing

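In every fit with another tool, scaling, filter, block or set of libraries, the members' median log2 fold change was below zero, and members were called only with TBT 2 and TBT 8 left out (4). Over all genes, 19 were called by DESeq2, 22 by limma-voom, 2 with no filter, 7 without TBT 2, TBT 8 and vehicle 6, and 462 without TBT 2 and TBT 8. Leaving out 1 library at a time gave 0 calls in each case, 56 to 66 members lower and medians from -0.08 to -0.04. With no filter the median of all genes was -0.06 (0.05 with it) and that of the members -0.06, so that the members' difference from other genes was 0.0039 (-0.0972 with it). Members called in relation to haemoglobin share numbered 0 without TBT 2 and TBT 8. As counts over the summed ribosomal protein counts they numbered 16 (5 positive, 11 negative), against 8.78% of all genes. In that form the members' shares are bound to each other and those of other genes are not. Counts of the low members were few: Rps10 had 1 count in TBT 2. The causes of these shifts were not tested.

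Among the named genes, some estimates changed sign. Without TBT 2 and TBT 8 they were Rpl10 -0.0287, Rpl22 0.057, Rpl22l1 0.0965, Rpl28 -0.13, Rpl35 -0.0113, Rpl41 -0.18, Rpl5 0.0218, Rpl6 0.032, Rpl7l1 0.007, Rplp0 -0.30, Rps10 0.0877 and Rps12 -0.26. Without vehicle 6 as well they were Rpl10 -0.0817, Rpl22 0.0649, Rpl22l1 0.0385, Rpl28 -0.16, Rpl35 -0.0256, Rpl41 -0.18, Rpl6 0.0261, Rpl7l1 0.0677, Rplp0 -0.30, Rps10 0.17, Rps12 -0.19 and Rps3a1 -0.0393. By limma-voom they were Rpl22 0.0589, Rpl22l1 0.0488, Rpl28 -0.0638, Rpl41 -0.0425, Rpl5 0.0145, Rpl6 0.0294, Rplp0 -0.19 and Rps12 -0.17. Of the named genes, Rps3a1 was -0.0087 when scaled without haemoglobin genes (63 of 80 members lower) and -0.0195 by upper quartile (65 of 80). Leaving out 1 library gave Rpl22 -0.0858 to 0.0165, Rpl22l1 -0.16 to 0.0741, Rpl28 -0.0105 to 0.11, Rpl7 -0.0885 to 0.0158, Rplp0 -0.077 to 0.19, Rps10 -0.24 to 0.11, Rps12 -0.0856 to 0.18, Rps3a1 -0.0296 to 0.0232 and Rpsa -0.0371 to 0.0478.

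Deviations of same-numbered mice from their group means correlated at -0.235 to 0.506. Such values cannot show whether the numbers are a pairing, and the labels give the numbers no meaning. With the replicate block 0 genes were called, 63 of 80 members were lower (median -0.06), and the named genes that changed sign were Rpl22l1 0.0199, Rpl28 -0.0158, Rplp0 -0.11 and Rps12 -0.0724.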
